A study of Gallus gallus with 6 samples.

Results

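The genes described here were read in papilla ectoderm samples of resting feather follicles and were nearly unread in such samples while the feather grew. They were chosen by their measured levels: a gene had to lie below 1 TPM (a level corrected for transcript length and scaled to a common total) in each of the 4 growth phase libraries and above 10 TPM in both resting libraries. Identifiers beginning with HB, HOX, FOX, KCN, CACN, COL, IL, CCL or CXCL were left out. The rule found 34 of 23724 genes, 30 with a symbol and 4 with a LOC identifier. Because these values chose the genes, the difference between rest and growth is described below and is not tested.

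Bulk RNA-seq was performed on papilla ectoderm of contour feather follicles from untreated White Leghorn chickens, males of 6 months to 1 year according to the methods of the study. Early growth follicles had regenerated for 3 weeks, late growth follicles for 7 weeks and resting follicles for 10 weeks, and each phase has 2 libraries. The ectoderm was peeled from the dermal papilla after EDTA treatment in a salt solution that lacked divalent cations. Whether different birds gave the 2 libraries of a phase is not stated, so their spread may be technical. All libraries carry the same batch label. The labels call the samples epidermal progenitor cells, and 25 of 30 keratinocyte markers lay above 10 TPM in both resting libraries. So did 38 of 44 smooth muscle markers, 28 of 42 markers of fibroblasts and the dermal papilla, and 34.7% of all genes. The resting libraries thus also hold much RNA known from other tissues.

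The papilla ectoderm surrounds the dermal papilla at the base of the follicle. While the feather grows, its cells feed the collar, where keratinocytes multiply and enter the barbs. In rest the follicle holds a finished, keratinized feather, and the epithelium waits until plucking or molt starts the next cycle. A resting follicle also carries nerves, vessels and the feather muscles, which are bundles of smooth muscle that move the feather. In bulk samples, fewer cells of a type and less RNA per cell cannot be told apart.

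The 34 genes formed a short and mostly modest list. The lowest, the median and the highest level were 10.8, 18.4 and 100.9 TPM in resting replicate 1 and 10.7, 19.1 and 107.9 TPM in resting replicate 2. Of the 34 genes, 2 averaged above 50 TPM, 13 lay between 20 and 50 TPM, and 19 lay below 20 TPM. Together they took 0.0856% and 0.0876% of all TPM in the resting libraries. The 8242 genes above 10 TPM in both resting libraries had a median of 32.9 TPM, against which the median of 19.2 TPM for the 34 genes was low. The resting libraries agreed closely on them. Their absolute difference on the log2(TPM + 1) scale had a median of 0.14 and a maximum of 0.53 over the 34 genes, and a median of 0.12 over the 8242 genes. The 34 genes included 31 protein-coding genes and 2 long noncoding RNAs by the RefSeq table of the GRCg7b assembly, and BHMT was not matched there.

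**Figure D1:**
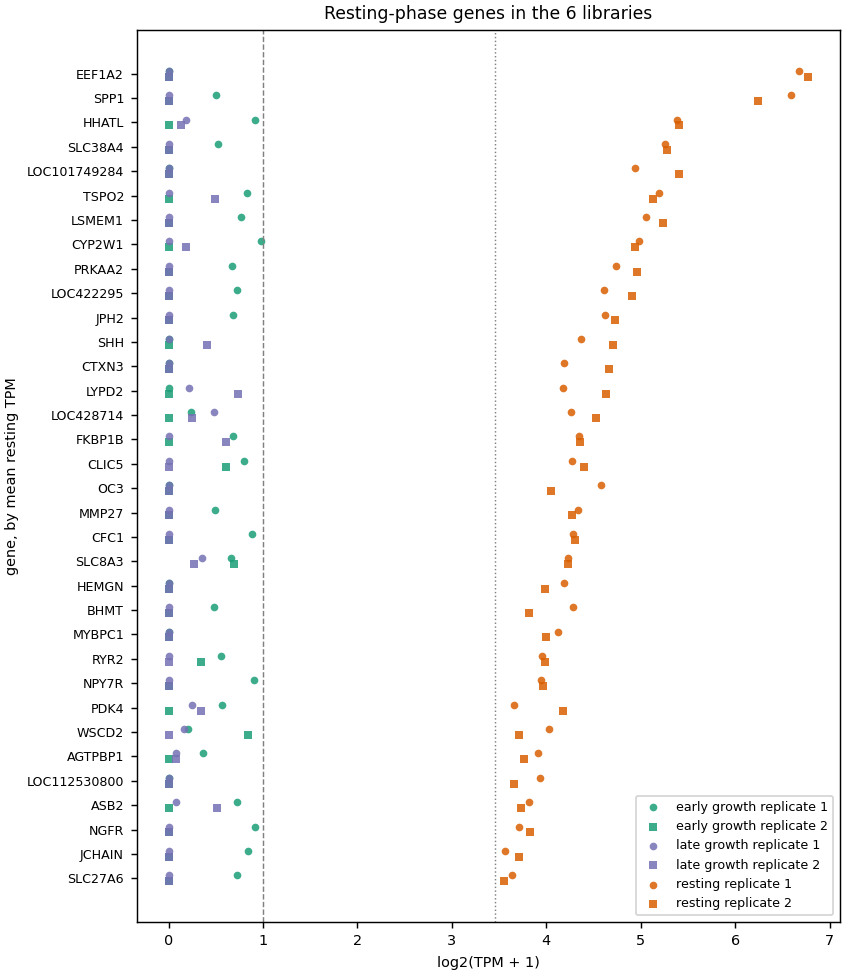
Level of each of the 34 genes in the 6 libraries, as log2(TPM + 1) on the horizontal axis, with genes ordered by mean resting TPM from top to bottom. Color marks the phase and shape the replicate, and the dashed and dotted lines mark the limits of 1 and 10 TPM. EEF1A2 and SPP1 stand above the rest, and the resting points of most genes nearly coincide.

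Most resting transcripts that late growth lacked were present in early growth. Of the 8242 genes above 10 TPM in both resting libraries, 255 (3.09%) lay below 1 TPM in both late growth libraries. Only 45 (0.546%) lay below 1 TPM in both early growth libraries, and 42 met both limits, 8 of which carry one of the prefixes left out. The smooth muscle markers show the same asymmetry. Of 44 markers in the file, 38 lay above 10 TPM in both resting libraries and 12 of these below 1 TPM in both late growth libraries, yet ASB2 alone was also below 1 TPM in both early growth libraries. Of the markers of fibroblasts and the dermal papilla, 28 lay above 10 TPM in both resting libraries and 8 of these below 1 TPM in both late growth libraries, and 0 met the rule. Of 42 genes for calcium handling and control of contraction, 23 lay above 10 TPM in both resting libraries, 9 of these below 1 TPM in both late growth libraries, and 3 met the rule.

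Traces in the growth phases were unevenly spread over the libraries. Of the 34 genes, 7, namely EEF1A2, LOC101749284, CTXN3, OC3, HEMGN, MYBPC1 and LOC112530800, were listed at 0 TPM in all 4 growth libraries. The other 27 had at least 1 growth value above 0, and for 13 of them that value came from early growth replicate 1 alone. In early growth replicate 1, 25 of the 34 genes lay above 0, against 4 in early growth replicate 2, 8 in late growth replicate 1 and 11 in late growth replicate 2. The highest values were 0.967, 0.793, 0.397 and 0.667 TPM in the same order. Of the 27 genes with a growth value above 0, 92.6% were above 0 in early growth replicate 1 and 14.8% in early growth replicate 2. The file at large showed a tilt in the same direction, though less steep. Among the 3121 genes below 1 TPM in all growth libraries and above 0 in at least 1, 80.5% were above 0 in early growth replicate 1 and 21.4% in early growth replicate 2. Over all genes, 16276 and 13373 lay above 0 in these libraries. Read depth is unknown, and its part in this difference was not tested. Early growth replicate 1 also set the length of the list. Without it, 81 genes met the rule, and without any other single library the number lay between 34 and 44.

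**Figure D2:**
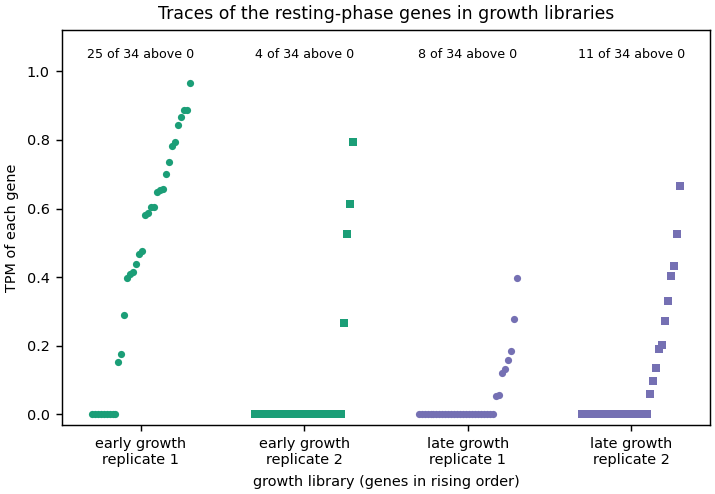
TPM of the 34 genes in each of the 4 growth libraries, 1 point a gene, in rising order within a library. In early growth replicate 1, 25 genes lie above 0, and in early growth replicate 2 only 4 do.

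The rule also used the growth values themselves, so the difference between late and early growth is likewise only described. Every growth value of the 34 genes is under 1 TPM, and the genes passed the filter on a mean above 1 TPM through their resting values. By limma over the 13063 genes that passed it, 33.6% were called at an adjusted p under 0.05 (5.24% higher and 28.4% lower in late growth). No calls are given for the 34 genes, because the rule capped the values compared. On the log2(TPM + 1) scale, 23 of the 34 genes lay lower in late growth, 4 higher and 7 at 0 in both. Their median difference was −0.25, and that over all tested genes was −0.31. The rule capped the values of the 34 genes and not those of the others, so the medians cannot be compared. For 13 of the 34, the only growth value above 0 came from early growth replicate 1. CLIC5 was listed at 0 in both late growth libraries, against 0.737 and 0.525 TPM in the early growth libraries.

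RYR2, JPH2, FKBP1B and SLC8A3 are known for calcium release and removal in muscle. Of the 34 genes, 10 were on one of the lists used here and 24 on none. RYR2, JPH2 and SLC8A3 were on the calcium handling list, and FKBP1B was on none. In excitable cells, calcium leaves the sarcoplasmic reticulum through ryanodine receptors, and junctophilins hold that membrane against the cell surface. FKBP1B binds the ryanodine receptor, and sodium-calcium exchangers carry calcium out of the cell. RYR2, the ryanodine receptor best known from the heart, was at 14.4 and 14.9 TPM in the resting libraries, against 0.466 and 0.267 TPM in early growth and 0 in both late growth libraries. JPH2, a junctophilin of muscle, was at 23.6 and 25.5 TPM in the resting libraries, against 0.604 TPM in early growth replicate 1 and 0 in the other growth libraries. FKBP1B was at 19.3 and 19.5 TPM in the resting libraries, against 0.606 TPM in early growth replicate 1, 0.527 TPM in late growth replicate 2 and 0 in the remaining 2. The resting values of each gene lie within 2 TPM of each other and far above any growth value. SLC8A3, an exchanger, was the only one of the 34 genes above 0 in all 6 libraries, at 17.7 and 17.8 TPM in the resting libraries, 0.580 and 0.612 TPM in early growth and 0.279 and 0.202 TPM in late growth.

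Relatives of these genes were compared in the same libraries after their values had been seen, so their levels are described without a test here. RYR3, another ryanodine receptor, was at 14.0 and 16.98 TPM in the resting libraries, against 4.81 to 15.002 TPM in the growth libraries. Both receptors thus stood at a like level in rest, and only RYR2 fell under 1 TPM in growth. JPH3 ran the other way, at 7.20 and 6.53 TPM in the resting libraries, against 12.8 to 14.2 TPM in growth, and JPH1 stayed at or under 1.54 TPM everywhere. SLC8A1, the widely expressed exchanger, reached 63.5 and 65.8 TPM in the resting libraries, against 0.0153 to 1.91 TPM in growth. It missed the rule through early growth replicate 1. FKBP1C, a relative of FKBP1B, was at 520.1 and 559 TPM in the resting libraries, against 572 to 626 TPM in growth, a far smaller contrast.

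Most other tested genes that handle calcium or control contraction were higher in rest than in late growth. The list for this held 42 genes in the file, with RYR2, JPH2 and SLC8A3 among them. Of the 29 others that were tested, 24 rose and 2 fell in the resting against the late growth libraries (limma, adjusted p under 0.05), where 47.8% of all tested genes were called, 24.7% rising and 23.1% falling. Their median change was 1.98 on the log2(TPM + 1) scale, against 0.02 over all tested genes. Against early growth, 16 of the 29 rose and 4 fell, where 49.8% of all tested genes were called, 15.8% rising and 34% falling. The median change was 0.89, against −0.27 over all tested genes. Both comparisons share the resting libraries. Neither was planned, and the list was chosen with earlier results of these data known, so the calls describe the list and are no independent test. The filter on the mean admitted 4 of the 29 only through their resting values, with a growth mean of at most 1 TPM. These 4 were SLC8A1, TRPC4, ADORA2B and PRKG2, all of them among the 24 and the 16. Of the other 25, 20 rose against late growth and 12 against early growth, where 22.5% and 13.7% of all genes with a growth mean above 1 TPM did. With no filter, 23 of 39 rose against late growth and 11 of 39 against early growth, where 12.1% and 7.93% of all genes did. Against early growth, 9 rose without resting replicate 1 and 8 without resting replicate 2, with 27 of the genes tested. SLC8A1, 1 of the 4 admitted through resting values, had the largest difference from late growth, 6.001, and no p-value is given for it. SLN, which encodes the calcium pump inhibitor sarcolipin, followed with 5.96 (standard error 0.29, limma adjusted p = 3.71e-05), and ITPR1, the calcium channel gated by inositol trisphosphate, rose by 2.47 (standard error 0.27, limma adjusted p = 6.88e-04). Among those that fell against late growth was ITPR3, another inositol trisphosphate receptor (−1.13, limma adjusted p = 0.00102). The list shares PDE5A, PLN, PPP1R12B and PRKG1 with the smooth muscle markers, and the part of muscle RNA in these changes was not tested.

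**Figure D3:**
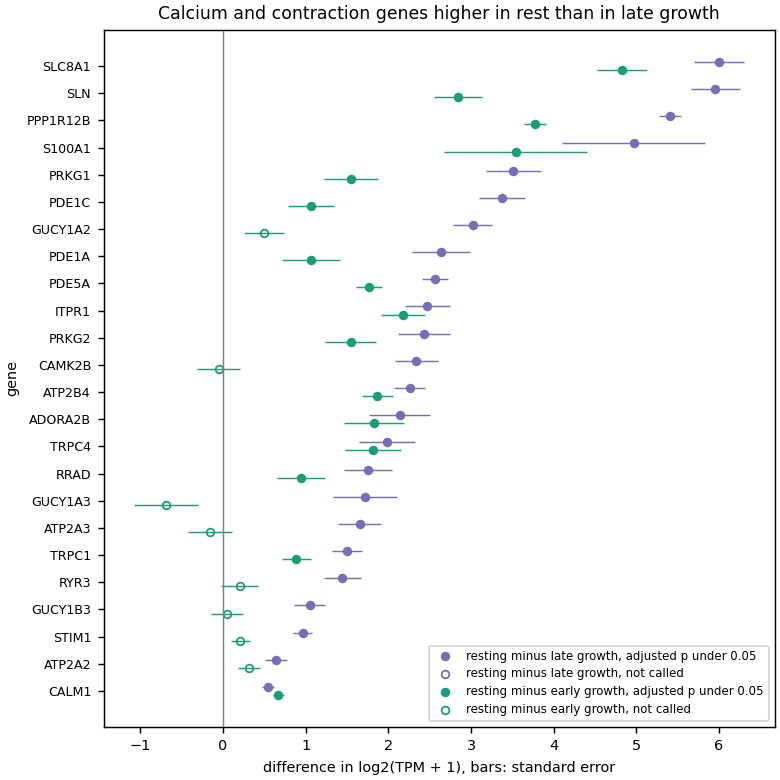
Change of the 24 genes for calcium handling and contraction control, none of them among the 34, that rose against late growth, as differences in log2(TPM + 1) with standard errors. Filled points passed an adjusted p of 0.05. SLC8A1, TRPC4, ADORA2B and PRKG2 passed the filter on the mean only through their resting values. All 24 are filled against late growth because they were chosen so, and 16 of them are filled and higher against early growth.

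ASB2 and MYBPC1 are the members of the smooth and the striated muscle lists among the 34. ASB2, the part of a ubiquitin ligase that targets filamins, was at 13.1 and 12.3 TPM in the resting libraries, against 0.649 and 0 TPM in early growth and 0.0561 and 0.431 TPM in late growth. FLNA, a filamin, was at 1565 and 1657 TPM in the resting libraries, against 65.1 to 150.7 TPM in growth. MYBPC1, the slow skeletal myosin-binding protein C of mammals, was at 16.4 and 14.9 TPM in the resting libraries and listed at 0 in all growth libraries. Most striated muscle markers in the file did not reach such a level in rest. The list named 67 genes, and some usual ones, such as TTN, NEB, RYR1 and CKM, were not in the file under these symbols. Of 55 striated muscle markers in the file, only MYBPC1, ACTA1, CMYA5 and MYL10 lay above 10 TPM in both resting libraries, while 20 were at 0 in all 6 libraries, among them MYOD1, MYOG and MYF5, which direct skeletal muscle, and the myosin light chains MYL1 and MYL2. ACTA1, the skeletal alpha-actin, was at 9343 and 9486 TPM in the resting libraries, against 31.5 to 359 TPM in growth. Reads of the near-identical actin genes may be split between them, so the ACTA1 level is uncertain.

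Most smooth muscle markers were highest in rest. Of the 44 in the file, 40 lay higher in both resting libraries than in any growth library, as did 16.1% of all genes. Summed TPM of the 44 smooth muscle markers was 5287 to 6262 in early growth, 2249 to 2500 in late growth and 66864 to 68741 in the resting phase. MYH11, the smooth muscle myosin heavy chain, was at 4845 and 4953 TPM in the resting libraries, against 126 to 229 TPM in early growth and 1.58 to 1.94 TPM in late growth. MYOCD, the coactivator that drives smooth muscle genes, was at 88.8 and 97.0 TPM in the resting libraries, against 0.394 to 5.0003 TPM in growth. Other markers were lower in rest than in early growth, 3 of the 44 in both libraries. ACTA2, the smooth muscle alpha-actin, was at 297 and 270.01 TPM in the resting libraries, against 462 and 347 TPM in early growth and 3.29 and 5.17 TPM in late growth, and ITGA8 and FHL5 shared that order. Like that of ACTA1, the ACTA2 level is uncertain, since reads may be split between actin genes. SMYD1 was at 0 in all libraries. The part of smooth muscle in the levels of the 34 genes was not tested.

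**Figure D4:**
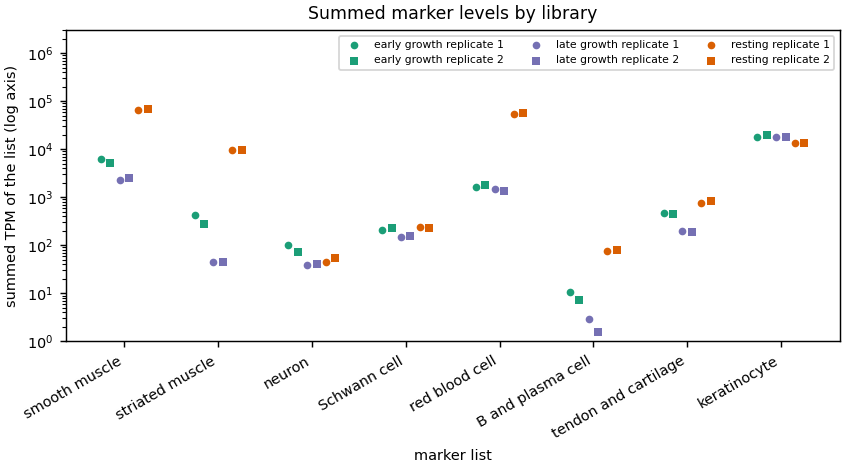
Summed TPM of 8 marker lists in the 6 libraries on a log axis, with color for the phase and shape for the replicate. The sums for smooth muscle, striated muscle, red blood cells, B and plasma cells, and tendon and cartilage are highest in rest. Most of the resting sum is ACTA1 for striated muscle, globins for red blood cells, and IGLL1 and JCHAIN for B and plasma cells. The keratinocyte sum is lowest in rest, at 13394 and 13501 TPM, against 17566 to 19591 TPM in growth.

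EEF1A2 was the highest of the 34 genes. It encodes a form of the elongation factor that brings aminoacyl-tRNA to the ribosome, and in mammals it replaces EEF1A1 in mature muscle and neurons. EEF1A2 was at 100.9 and 107.9 TPM in the resting libraries and listed at 0 in all 4 growth libraries. Its close relative EEF1A1 was at 13793 and 13847 TPM in the resting libraries, against 11054 to 16881 TPM in growth. The resting values of EEF1A1 lay between those of early and late growth.

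The next genes, on none of the lists, have known roles in fuel or amino acid use and are set together for that alone. PRKAA2, a catalytic subunit of the energy sensor AMPK, was at 25.7 and 30.1 TPM in the resting libraries, against 0.587 TPM in early growth replicate 1 and 0 in the other growth libraries. The alternative subunit PRKAA1 was at 25.6 and 29.2 TPM in the resting libraries, against 22.1 to 31.9 TPM in growth. In rest the 2 subunits were at nearly the same level, whereas in growth PRKAA1 stood alone. Among the other AMPK subunits, PRKAB2 was at 43.0 and 43.4 TPM in the resting libraries, against 9.59 to 18.9 TPM in growth, without overlap. PRKAB1 overlapped between rest and growth, at 20.9 and 34.1 TPM in the resting libraries, against 9.24 to 25.7 TPM in growth.

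PDK4, a kinase that shuts off pyruvate dehydrogenase and so spares glucose, was at 11.6 and 17.1 TPM in the resting libraries, against 0.475 and 0 TPM in early growth and 0.184 and 0.271 TPM in late growth. The resting replicates of PDK4 were among the less concordant. PDK1 went the other way, at 14.2 and 16.8 TPM in the resting libraries, against 23.8 to 29.4 TPM in growth. PDK3 was higher in rest, at 58.9 and 71.7 TPM, against 45.1 to 58.1 TPM in growth. SLC27A6, a fatty acid transporter, had the lowest mean of the 34 genes, 11.4 and 10.7 TPM in the resting libraries, against 0.658 TPM in early growth replicate 1 and 0 in the other growth libraries. Its relative SLC27A1 was also highest in rest, at 26.3 and 31.8 TPM, against 3.19 to 7.83 TPM in growth, and SLC27A4 was lowest there, at 24.9 and 22.6 TPM, against 30.4 to 62.7 TPM in growth.

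SLC38A4, a transporter of neutral amino acids, was at 37.3 and 37.7 TPM in the resting libraries, against 0.439 TPM in early growth replicate 1 and 0 in the other growth libraries. SLC38A2 of the same family was lower in rest, at 175 and 178 TPM in the resting libraries, against 295 to 412 TPM in growth. SLC38A3 was higher in rest, at 5.89 and 8.28 TPM, against 0 in all growth libraries, and SLC38A1 overlapped between rest and growth. BHMT, which remethylates homocysteine with betaine, was at 18.5 and 13.1 TPM in the resting libraries, against 0.398 TPM in early growth replicate 1 and 0 in the other growth libraries. MTR, the methionine synthase that does so with folate, overlapped between rest and growth. CYP2W1, an orphan cytochrome P450, was at 30.7 and 29.7 TPM in the resting libraries, against 0.967 TPM in early growth replicate 1, 0.136 TPM in late growth replicate 2 and 0 in the other growth libraries. The CYP2W1 and CYP2W2 genes overlap in the RefSeq table, and CYP2W2 was listed at 0 in both resting libraries, against 0.307 to 1.40 TPM in growth. Reads may have been assigned to either gene, so the growth values of CYP2W1 are uncertain.

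**Figure D5:**
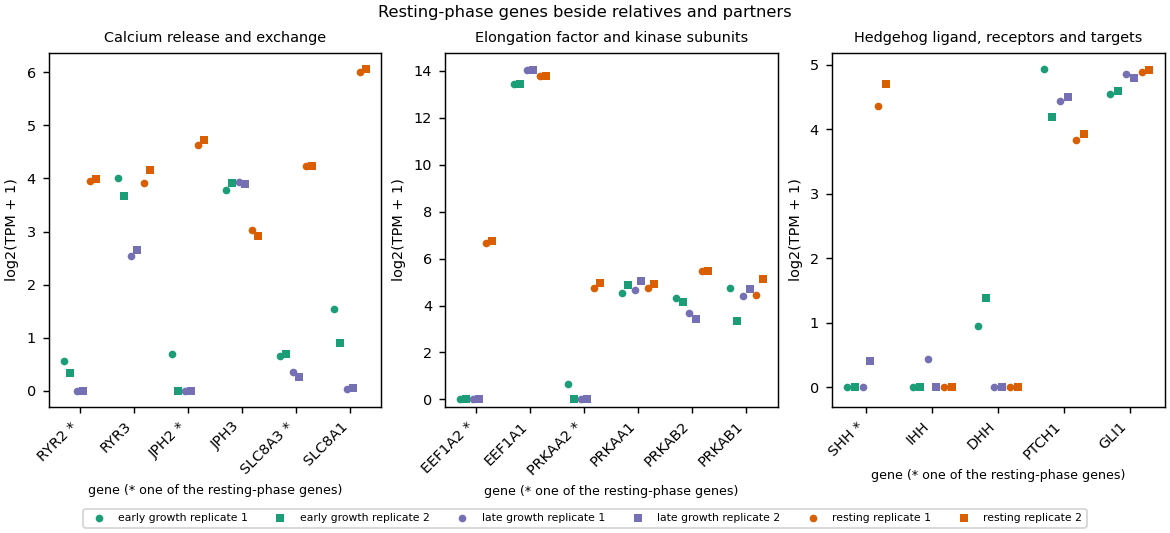
Levels of 6 of the 34 genes (starred) beside relatives and partners, as log2(TPM + 1) in the 6 libraries. PRKAA1 and EEF1A1 lie at similar levels in all phases, whereas PRKAA2, EEF1A2 and SHH lie near 0 in growth and high in rest.

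SHH was the ligand in the group. Sonic hedgehog is secreted by feather epithelium, where it is known for its role in laying out barb ridges, and cells that receive it usually raise PTCH1 and GLI1. SHH was at 19.6 and 25.1 TPM in the resting libraries, against 0.329 TPM in late growth replicate 2 and 0 in the other growth libraries. IHH and DHH, the other hedgehog ligands, were listed at 0 in both resting libraries. The receptor PTCH1 was at 13.2 and 14.3 TPM in the resting libraries, against 17.3 to 29.6 TPM in growth. GLI1, a transcription factor and target of the pathway, was at 28.5 and 29.2 TPM in the resting libraries, against 22.3 to 28.0 TPM in growth. PTCH1 was thus lower in rest without overlap, and GLI1 was slightly higher in rest without overlap. In the RefSeq table SHH overlaps LOC107052611, which was at 4.85 and 3.46 TPM in the resting libraries and at 0 in all growth libraries. The library kit as labelled does not keep strand, so reads in sequence that overlapping genes share cannot be told apart. The overlap is of whole gene spans, and shared exons were not examined.

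HHATL, a relative of the hedgehog acyltransferase, came next to SPP1 by level, at 40.9 and 41.5 TPM in the resting libraries, against 0.888 and 0 TPM in early growth and 0.132 and 0.0973 TPM in late growth. HHAT, the acyltransferase itself, was at 5.26 and 5.87 TPM in the resting libraries, against 5.86 to 6.06 TPM in growth. CFC1, a co-receptor for Nodal-type ligands, was at 18.5 and 18.8 TPM in the resting libraries, against 0.843 TPM in early growth replicate 1 and 0 in the other growth libraries. NODAL itself was at 0 in all 6 libraries, while GDF3, another ligand of that family, was at 6.61 and 7.06 TPM in the resting libraries, against 4.07 to 9.79 TPM in growth.

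SPP1 was second by level. It encodes osteopontin, a secreted matrix phosphoprotein of bone and of macrophages, and was at 95.6 and 74.6 TPM in the resting libraries, against 0.415 TPM in early growth replicate 1 and 0 in the other growth libraries. Genes of related matrix phosphoproteins stayed low. MEPE, its neighbor in the RefSeq table, was at 0 in all libraries, IBSP at 0 in both resting libraries, and DMP1 at 0.374 and 0 TPM in them. The genes compared for receptors of osteopontin went both ways. CD44 was lower in rest, at 232 and 244 TPM, against 304 to 679 TPM in growth. ITGAV was also lower, at 40.5 and 49.3 TPM in the resting libraries, against 64.3 to 113 TPM in growth. ITGB3 was higher in rest without overlap, at 13.2 and 11.3 TPM, against at most 8.66 TPM in growth. MMP27, a matrix metalloproteinase, was at 19.1 and 18.3 TPM in the resting libraries, against 0.409 TPM in early growth replicate 1 and 0 in the other growth libraries. MMP3 showed the reverse, at 15.5 and 16.7 TPM in the resting libraries, against 206 to 275 TPM in growth. MMP10 was likewise lower in rest, at 0 in both resting libraries, against 0.801 to 13.7 TPM in growth. MMP2 was higher in rest, at 156 and 179 TPM, against 5.67 to 149.6 TPM in growth.

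NGFR and NPY7R are receptors known from nerves. NGFR, the p75 neurotrophin receptor of Schwann cells and neurons, was at 12.1 and 13.1 TPM in the resting libraries, against 0.888 TPM in early growth replicate 1 and 0 in the other growth libraries. NTRK2, another neurotrophin receptor, was at 24.1 and 26.8 TPM in the resting libraries, against 0.0969 to 2.57 TPM in growth. It lay higher in rest without overlap. Of 19 Schwann cell markers in the file, 8 lay above 10 TPM in both resting libraries. Their summed TPM was 207 to 231 in early growth, 150.1 to 159 in late growth and 229 to 241 in the resting phase. The marker S100B was at 0 in all libraries, while SOX10 was at 9.99 and 12.7 TPM in the resting libraries, against 0 to 1.80 TPM in growth. FOXD3 was at 11.5 and 11.8 TPM in the resting libraries, against 0 to 2.14 TPM in growth. By contrast, FABP7, ERBB3, MOG and GFAP lay lower in both resting libraries than in any growth library. Of 35 neuron markers, NEFL alone lay above 10 TPM in both resting libraries. NPY7R, a receptor for neuropeptide Y, was at 14.4 and 14.7 TPM in the resting libraries, against 0.867 TPM in early growth replicate 1 and 0 in the other growth libraries. NPY1R was at 0 in all libraries, NPY5R was at 0 in rest, and the peptide gene NPY was at 1.99997 and 13.6 TPM in the resting libraries and at 0 in growth.

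HEMGN, TSPO2 and JCHAIN are known from blood cells. HEMGN, a nuclear protein of blood-forming cells, was at 17.2 and 14.8 TPM in the resting libraries and at 0 in all growth libraries. TSPO2, the red cell relative of the mitochondrial protein TSPO, was at 35.5 and 34.1 TPM in the resting libraries, against 0.782 and 0 TPM in early growth and 0 and 0.402 TPM in late growth. TSPO was lower in rest, at 141 and 137 TPM, against 249 to 266 TPM in growth. The summed red blood cell markers were higher in rest, through the globins. The sum of the 27 in the file was 1626 to 1816 TPM in early growth, 1377 to 1491 TPM in late growth and 55439 to 55734 TPM in the resting phase. Without the globins, the 20 other markers summed to 286 and 277 TPM in the resting libraries, against 294 and 343 TPM in early growth and 491 and 486 TPM in late growth. Among these 20, CA2, a carbonic anhydrase, was the highest in each growth library. CA2 was at 14.4 and 13.5 TPM in the resting libraries, against 87.3 to 353 TPM in growth. Without CA2 the sum was higher in rest. That sum still holds HEMGN and TSPO2, which were chosen for their resting levels, so it is no separate measure of red blood cells. Counted by gene, 15 of the 27 markers lay higher in both resting libraries than in any growth library, as did 16.1% of all genes. Of the 27, 4 met both expression limits, which fixed that order for them. Another 3 lay lower in both resting libraries than in any growth library, as did 17.5% of all genes. HBBA, a beta-type globin, was at 290.4 and 248 TPM in the resting libraries, against 329 to 556 TPM in growth. HBZ, which encodes an embryonic alpha-type globin, was at 8151 and 7986 TPM in the resting libraries and at 0 in growth, and would meet the rule but for its prefix. SLC4A1, the red cell anion exchanger, was at 7.43 and 6.09 TPM in the resting libraries, against 0.502 to 4.43 TPM in growth. The part of blood in the levels of HEMGN and TSPO2 was not tested.

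JCHAIN, which links antibody molecules secreted by plasma cells, was at 10.8 and 12.1 TPM in the resting libraries, against 0.795 TPM in early growth replicate 1 and 0 in the other growth libraries. IGLL1 was at 57.4 and 60.0 TPM in the resting libraries, against 0 to 6.85 TPM in growth. Few other B and plasma cell markers reached such a level. Of 19 in the file, IGLL1 and JCHAIN alone lay above 10 TPM in both resting libraries, and 7 were at 0 in all libraries, PAX5 and POU2AF1 among them. The sum of the 19 was 7.43 to 10.9 TPM in early growth, 1.58 to 2.86 TPM in late growth and 76.0 to 81.6 TPM in the resting phase. IGLL1 and JCHAIN made up most of the resting sum. JCHAIN was itself chosen for its rise, so the sum is no separate measure of these cells.

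The remaining genes fall into no single group. CLIC5, a chloride intracellular channel protein tied to actin in mammals, was at 18.4 and 20.1 TPM in the resting libraries, and its relative CLIC4 was at 385 and 367 TPM, against 217 to 285 TPM in growth. AGTPBP1, which trims glutamate chains from tubulin, was at 14.1 and 12.6 TPM in the resting libraries, against 0.288 and 0 TPM in early growth and 0.0521 and 0.0584 TPM in late growth. It overlaps NAA35, which was at 44.3 and 42.7 TPM in the resting libraries, against 40.9 to 59.6 TPM in growth. LSMEM1, a single-pass membrane protein, was at 32.2 and 36.5 TPM in the resting libraries, against 0.700 TPM in early growth replicate 1 and 0 in the other growth libraries. LYPD2, a protein of the LY6 family, was at 17.1 and 23.7 TPM in the resting libraries, and its traces lay in late growth alone, 0.159 and 0.667 TPM. The adjacent family member LY6E was at 404 and 414 TPM in the resting libraries, 551 and 579 TPM in early growth and 107 and 97.8 TPM in late growth. WSCD2 was at 15.3 and 12.1 TPM in the resting libraries, against 0.153 and 0.793 TPM in early growth and 0.119 and 0 TPM in late growth. CTXN3, a small membrane protein of the cortexin family, was at 17.2 and 24.4 TPM in the resting libraries and at 0 in growth, and CTXN1 was at 47.3 and 48.4 TPM, against 5.30 to 11.7 TPM in growth.

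OC3 was at 22.9 and 15.5 TPM in the resting libraries and at 0 in growth, and had the widest gap between resting replicates of the 34 genes, 0.53 on the log2(TPM + 1) scale. OC3 is the next gene to MGP, an inhibitor of calcification, which was at 303 and 307 TPM in the resting libraries, against 40.2 and 39.7 TPM in early growth and 0 in late growth. The LOC genes are given so that each of the 34 is accounted for. The noncoding LOC101749284 was at 29.7 and 41.4 TPM and the noncoding LOC112530800 at 14.3 and 11.6 TPM in the resting libraries, with 0 in all growth libraries. The protein-coding LOC422295 was at 23.4 and 29.0 TPM in the resting libraries, against 0.655 TPM in early growth replicate 1 and 0 in the other growth libraries. The protein-coding LOC428714 was at 18.2 and 22.0 TPM in the resting libraries, against 0.176 and 0 TPM in early growth and 0.397 and 0.191 TPM in late growth.

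In the gene order of GRCg7b, the nearest gene on each side that is in the file was taken for the 33 matched genes. None of these 66 neighbors was among the 34, and 0 met both expression limits, which 0.177% of all genes meet. Of them, 29 (43.9%) lay above 10 TPM in both resting libraries, as did 34.7% of all genes, and 29 (43.9%) lay below 1 TPM in all growth libraries, as did 41.2% of all genes. Some were higher in rest. SMOC1, beside SLC8A3, was at 97.8 and 91.7 TPM in the resting libraries, against 0.139 to 5.502 TPM in growth. RUNX2, beside CLIC5, was at 11.6 and 19.1 TPM in the resting libraries, against 0.173 to 1.57 TPM in growth. KLHL40, beside HHATL, was at 2.11 and 1.76 TPM in the resting libraries and at 0 in growth. Of the 33 genes, 13 overlap another gene in that annotation, and strand was not kept.

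At the limits of the rule, genes on either side differed little. CYP2W1, NGFR and HHATL were the last inside the growth limit, with highest growth values of 0.967, 0.888 and 0.888 TPM, and GDF7, TRHDE and CMYA5 the first outside it, with 1.10, 1.13 and 1.17 TPM. SLC27A6, JCHAIN and PDK4 were the last inside the resting limit, with lowest resting values of 10.7, 10.8 and 11.6 TPM, and SHROOM3, SELE and CITED2 the first outside it, with 9.61, 9.58 and 9.56 TPM.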

How the data were processed

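Bulk RNA-seq of 6 papilla ectoderm libraries (early growth, late growth and resting phase, 2 each) was analyzed. The authors made the libraries with the TruSeq RNA v2 kit, which does not mark strand, and sequenced single short reads. The TPM values deposited by the authors came from StringTie at default parameters on the GRCg6a assembly with its Ensembl annotation, and no source used here names the aligner. Read totals are unknown, so precision rests on the 2 libraries of a phase. The read counts behind the study's own tests were not used here.

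TPM were used unchanged. For tests, log2(TPM + 1) of genes with a mean above 1 TPM was fitted over all 6 libraries with limma 3.58.1 (R 4.3.3), with a variance trend and Benjamini-Hochberg adjustment over all 13063 genes. The script was tested on simulated data. The 34 genes were part of the fit, but no test of them is reported, because the rule chose them by the values compared. The members and gene lists were chosen with earlier results of these data known. The genes named were those with a symbol among the 30 highest of the 34, on a list, called between late and early growth, or nearest to a limit. Relatives, neighbors and the remaining genes of the 34 were added after their values had been seen. Names, biotypes and gene order came from the RefSeq table of GRCg7b, which matched 33 of the 34. Alternatives were other pseudocounts, filters, scalings and limits, a replicate block and leaving out each library. Some results are not reported here.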

Additional observations from a re-analysis of the deposited data

How the results depend on the processing

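The number of genes meeting the rule was 16 with growth values below 0.5 TPM, 68 below 2 TPM, 65 with resting values above 5 TPM and 11 above 20 TPM. Leaving out 1 library gave 34 to 81 genes. The median resting level was 20.35 TPM after median-of-ratios scaling, and 18.43 to 19.12 TPM with 1 resting library. Between 14 and 27 of the genes had a growth value above 0 when 1 library was left out, with 14 without early growth replicate 1. Between late and early growth, whose values the rule used, no calls are given for the 34 genes. With only the growth libraries in the fit, none of the 34 passed the filter on the mean, so no value was obtained. Of the calcium handling genes, those lower in rest than in late growth numbered 1 with a filter at 5 TPM and 4 after quantile normalization. Those higher in rest than in early growth numbered 8 to 16 when 1 library was left out. With no filter, 23 of 39 such genes were higher in rest than in late growth and 11 of 39 higher than in early growth. The comparisons of the calcium handling genes were not planned, and their alternatives were chosen after seeing the data. The cause of these shifts was not tested.

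Deviations of same-numbered libraries correlated at −0.03, 0.01 and 0.01 between phases, so the replicate numbers showed no shared deviation. This cannot decide whether same-numbered libraries share a bird. With a replicate block, 24 calcium handling genes were higher and 2 lower in rest than in late growth. In the same block, 14 were higher and 4 lower in rest than in early growth. With 2 libraries a phase and unknown read depth, a gene listed at 0 cannot be given an upper limit.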

Other observations

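The 8 genes that met both expression limits but carry a prefix left out were CCL5, CCLI5, COL19A1, HBE1, HBZ, KCNC4, KCNJ15 and KCNK3. KCNC4, a voltage-gated potassium channel gene, was at 42.9 and 34.6 TPM in the resting libraries, against 0.618 TPM in early growth replicate 1 and 0 in the other growth libraries. KCNJ15, an inward rectifier, was at 27.7 and 35.9 TPM in the resting libraries, against 0 to 0.991 TPM in growth.

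Of the genes above 10 TPM in rest and below 1 TPM in both early growth libraries, 3 exceeded 1 TPM in late growth. BMP3, a secreted signal of the bone morphogenetic protein family, was at 0.578 and 0 TPM in early growth, 3.64 and 2.53 TPM in late growth and 49.0 and 41.7 TPM in the resting phase. ADGRG2 was at 0.261 and 0 TPM in early growth, 0.8004 and 1.24 TPM in late growth and 20.6 and 26.6 TPM in the resting phase. CCL1, a chemokine, was at 0 in early growth, 3.22 and 0 TPM in late growth and 28.5 and 29.1 TPM in the resting phase.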
